A study of Mus musculus with 8 samples.

Results

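The genes described here encode the machinery that folds secreted and membrane proteins in the endoplasmic reticulum (ER) and destroys those that do not fold. They are 34 genes named in a list and matched by symbol to the first column of the table of normalized counts, which holds 44343 genes. All 34 were found, and all 34 passed the filter on low values used for the tests (an average of 10 or more normalized counts). By role they comprise 3 stress sensors or transcription factors, 11 chaperones and cofactors, 6 disulfide enzymes, 10 genes of ER-associated degradation and 4 of translocation into the ER.

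RNA was sequenced from pancreatic beta cells sorted for YFP from mice carrying MipCreER, a tamoxifen-activated Cre expressed from an insulin promoter, the Cre-activated reporter R26R-EYFP, and floxed Adar. Adar encodes an RNA-editing enzyme that turns adenosine into inosine where RNA is double-stranded. The KO group has 4 libraries (Adar floxed/floxed), and the Het group has 4 libraries (Adar floxed/+, 1 allele left normal). The Het mice therefore also carried the Cre, the reporter and a floxed allele, and mice of both groups were given tamoxifen at 1 month of age (2 doses of 8 mg), with islets taken 7 days later. How many mice went into a library is not stated, so the p-values rest on the spread between libraries. Limma pools that spread over genes, partly or wholly. Every Cre-active cell makes the reporter whether or not both Adar alleles recombined, and the labels give no measure of recombination.

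Beta cells make proinsulin in very large amounts and load it into the ER, where it folds and forms its disulfide bonds. Unfolded protein in the ER is sensed by IRE1 (gene Ern1), ATF6 and PERK. IRE1 splices the mRNA of Xbp1, and the XBP1 and ATF6 proteins are transcription factors that turn on chaperones, disulfide isomerases and degradation genes, many through a promoter element called the ER stress response element (ERSE). PERK acts by phosphorylating a translation factor and raising ATF4. Gene-level counts do not show splicing of Xbp1 or cleavage of ATF6.

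The ERSE was looked for in the promoters of the members, from 250 bases before to 50 bases after each annotated start (RefSeq, GRCm38.p6), because it is the sequence that many of them are known to share. Of the 34 members, 29 had a promoter in the table, and Atf6, Hyou1, Manf, Derl1 and Sec61a1 had none. The element was searched as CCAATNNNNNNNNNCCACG on both strands, where N is any base. It was present in 10 of the 29 members (34.5%), namely Hspa5, Hsp90b1, Dnajc3, Creld2, Calr, Canx, Pdia6, Ero1lb, Syvn1 and Derl3, against 0.137% of all 27025 genes with a promoter in the table. The shorter ERSE-II, ATTGGNCCACG, was present in Dnajb11 and Herpud1 (6.90% of the 29, against 0.0444% of genes). ERSE-II overlaps none of the ERSE matches. The element TGACGTGG, which spliced XBP1 binds, was in 0 of the 29 windows and in 0.714% of genes. A match is a description of letters in these windows and not evidence of binding. The windows below are those of some of the members with a match, with the matched element in capitals. Where the capitals begin with CGTGG the element lies on the opposite strand. Offsets are from the RefSeq start, which can differ from the GENCODE gene start given further below. For Hspa5 the GENCODE start, 34771970, lies before the window, so the element is inside the gene as annotated there.
Hspa5, chr2:34772015-34772053, plus strand, element at −65 from the start: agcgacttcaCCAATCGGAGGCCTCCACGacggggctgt
Calr, chr8:84847065-84847103, minus strand, element at −162: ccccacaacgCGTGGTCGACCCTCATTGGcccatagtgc
Ero1lb, chr13:12565672-12565710, plus strand, element at −201: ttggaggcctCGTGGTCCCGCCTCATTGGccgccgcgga
Syvn1, chr19:6046522-6046560, plus strand, element at −44: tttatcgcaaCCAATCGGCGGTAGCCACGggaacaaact
Derl3, chr10:75893232-75893270, plus strand, element at −156: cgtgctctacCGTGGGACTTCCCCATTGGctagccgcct
Herpud1, chr8:94386367-94386397, plus strand, ERSE-II at −52: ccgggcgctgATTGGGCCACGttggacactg

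The libraries held 5370765 to 15883473 reads assigned to genes, and they differed from each other by more than genotype. For the 6697 genes averaging 200 or more, the median deviation from the mean of the 8 libraries, on the deposited scale in log2, was 0.88 for KO 1, 0.96 for KO 2, −0.77 for KO 3, −0.56 for KO 4 and −0.46 to 0.22 for Het. The scaling is therefore named with each result, either the deposited one or TMM (trimmed mean of M-values), and some results are given as ratios within a library, which no scaling changes. With TMM the median over all tested genes went from 0.05 to −0.16 (log2 fold change), and it left the genes of high level at 0.40, 0.36, −0.41 and −0.25 in KO 1 to KO 4. The share of mitochondrial reads was 17.4% for KO 3, the other 7 lying between 6.90% and 10.4%. Xist was at 19.2 normalized counts in Het 1 and at 2343 to 7207 elsewhere, and for the Y-linked Ddx3y the values were 1.10 (KO 3), 0 (KO 4, a count of 0 reads that allows up to 3) and 198 to 1285 (the others). Adar was at 943, 1173, 1187 and 744 in Het and 4030, 2365, 615 and 1343 in KO (limma, adjusted p = 0.910). A count over all exons does not measure the floxed part. The 12 beta cell markers took 9.48% to 11.95% of reads in Het and 3.82%, 8.34%, 10.8% and 4.35% in KO 1 to KO 4, with Ins2 the highest. In bulk samples, fewer cells of a type and less RNA per cell cannot be told apart.

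With limma under both scalings, the log2 fold changes of the chaperones and disulfide enzymes were negative in KO relative to Het. For nearly all members the difference was within the spread between libraries, which was wide among the KO libraries. Derl3 was the member with the strongest difference, and its call depended on the scaling. On the scale as deposited, limma called 0 of the 34 members higher and 0 lower in KO (Benjamini-Hochberg adjusted p under 0.05 over all 21498 tested genes). Over all genes it called 0.921% higher and 0.0233% lower. DESeq2 also called 0. Before adjustment, limma gave 1 member, Derl3, a p under 0.05 on the lower side and 0 on the higher. Of the 21498 genes, 581 were lower and 871 higher at that threshold. The log2 fold change, KO relative to Het, was negative in 25 of 34 members with a median of −0.27, against 9820 of 21498 genes and a median of 0.05. With TMM scaling it was negative in 32 of 34 with a median of −0.49, and 1 member was called lower, Derl3, and 0 higher, where 0.0372% and 0.637% of all genes were called. Before adjustment, that scaling put 7 members lower at a p under 0.05 and 0 higher. It put 667 of the 21498 genes lower and 1148 higher, and 201 and 495 of the 6697 averaging 200 or more. Among the genes averaging 200 or more, to which 33 of the members belong, the TMM log2 fold change was negative in 3205 of 6697 with a median of 0.02. As deposited it was negative in 1593 of these genes, with a median of 0.24. The sign of the members also depended on the method. With edgeR 28 of 34 were negative, with a median of −0.42 against −0.10 over all genes. With DESeq2 16 of 34 were negative, with a median of 0.02 against 0.06 over all genes. There 6 of 11 chaperones and 6 of 6 disulfide enzymes were negative.

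**Figure D1:**
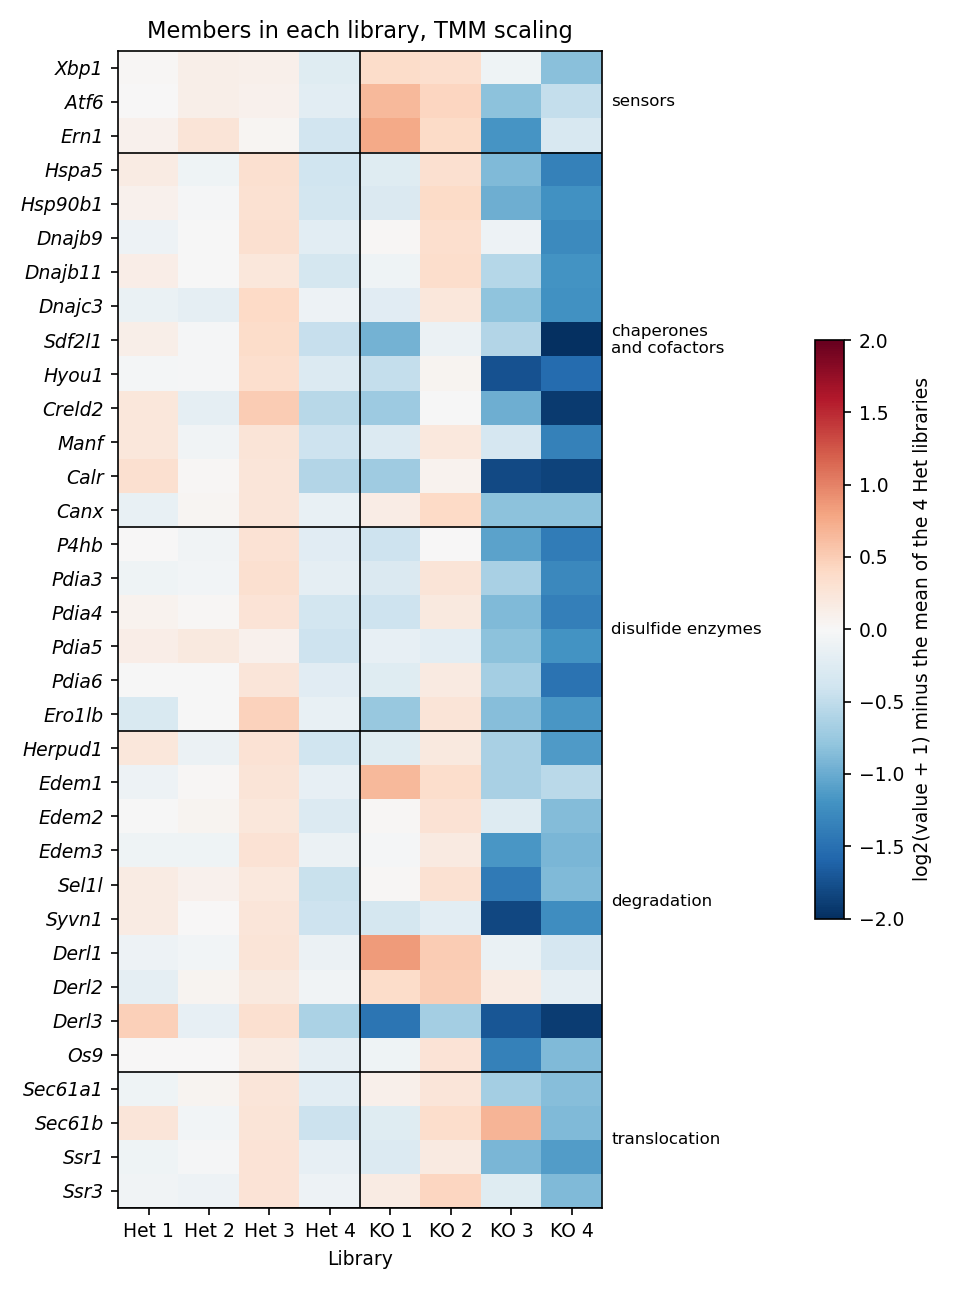
Each of the 34 members (rows, grouped by role) in each of the 8 libraries (columns), coloured by its log2 level with TMM scaling minus the mean of the 4 Het libraries. KO 3 and KO 4 are below the Het range for 28 and 32 members, KO 1 for 12, and KO 2 for 1 (Derl3) while 17 members lie above the range there. Of the 6697 genes averaging 200 or more, 4305 and 3644 were below it in KO 3 and KO 4. In KO 1 and KO 2, 496 and 102 of them were below it and 4599 and 4948 above.

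The 4 KO libraries did not move together, as the heat map of members by library shows. After TMM scaling, the 34 members had a median difference from the Het mean of −0.23 (KO 1), 0.26 (KO 2), −0.82 (KO 3) and −1.18 (KO 4), and −0.26 to 0.26 in the Het libraries. KO 1 had 12 members below the range of the 4 Het libraries and 6 above it, the 3 sensors and 3 degradation genes. KO 2 had 1 below and 17 above. KO 3 had 28 below and 1 above (Sec61b), and KO 4 had 32 below and 0 above. Of the 6697 genes averaging 200 or more, 496 were below and 4599 above in KO 1, and 102 and 4948 in KO 2. The counts were 4305 below and 855 above in KO 3, and 3644 and 958 in KO 4, so such shifts were not limited to the members. With all 4 KO libraries, 1 member had every KO value below every Het value, Derl3, and 0 had every KO value above, where 1.70% and 3.69% of all genes did so.

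The members' share of all reads needs no scaling between libraries. It was 2.17%, 1.96%, 2.11% and 1.78% in Het 1 to Het 4 and 1.52%, 1.95%, 1.27% and 1.17% in KO 1 to KO 4. The exact 95% binomial interval extended at most 0.0117 percentage points to either side, which covers counting error only. KO 2 lay inside the Het range and the other 3 KO libraries lay below it. The share of the 12 beta cell markers was below its Het range in KO 1, KO 2 and KO 4 and inside it in KO 3, while the median marker with TMM scaling was at −0.42, 0.32, −0.55 and −0.55 in KO 1 to KO 4 and at −0.22 to 0.34 in Het. Their part in the members' share was not tested. The mean was 2.01% ± 0.18 in Het and 1.48% ± 0.35 in KO (SD, n = 4 each). Set against the median gene of high level in the same library, the median member was at −0.64, −0.10, −0.41 and −0.93 in KO 1 to KO 4 on the log2 scale and at −0.12 to 0.10 in the Het libraries. On this measure KO 2 was inside the Het range too.

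**Figure D2:**
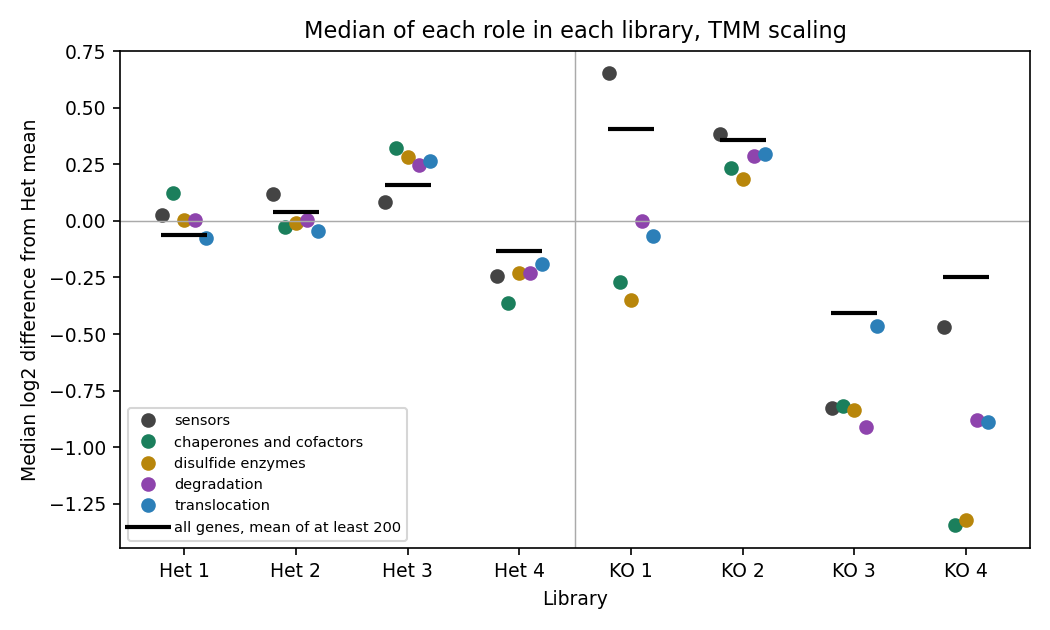
Median log2 difference from the Het mean with TMM scaling (vertical axis) for the members of each role in each of the 8 libraries; black bars give the median of all 6697 genes that average 200 or more. In KO 1 the sensors are at 0.65 and the disulfide enzymes at −0.35, while in KO 4 the chaperones are at −1.34 and the sensors at −0.47.

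None of the 3 sensors and transcription factors was called under either scaling, and 0 had an unadjusted p under 0.05. Their KO values spanned a wider range than their Het values. Xbp1 (ENSMUSG00000020484, chr11:5520659-5525893, plus strand, mm10), whose spliced mRNA encodes the transcription factor XBP1, was at 2283, 2668, 2861 and 1706 normalized counts in Het and at 4547, 4863, 1855 and 1150 in KO. KO 1 and KO 2 were above every Het library, KO 3 was inside the Het range and KO 4 was below it. For Xbp1 the fitted log2 fold change and its standard error were 0.17 ± 0.62 (limma, adjusted p = 0.985), and −0.05 ± 0.33 with TMM scaling; ± after a log2 fold change is the standard error throughout. Atf6 (chr1:170704674-170867771, minus strand), the membrane-bound sensor that is cut to release a transcription factor, was at 2096, 2499, 2625 and 1629 in Het and at 5149, 4825, 1036 and 1376 in KO. The first 2 KO libraries were above all Het libraries and the last 2 below them. Atf6 had a log2 fold change of 0.17 ± 0.61 (SE; limma, adjusted p = 0.985) and −0.05 ± 0.35 with TMM scaling. Ern1 (chr11:106394650-106487852, minus strand), the kinase and endoribonuclease IRE1, was at 3404, 4246, 3884 and 2217 in Het and at 8518, 7187, 1241 and 2332 in KO. The same 2 libraries were above the Het range, KO 3 was below it and KO 4 inside it. The fit gave Ern1 a log2 fold change of 0.13 ± 0.64 (limma, adjusted p = 0.990), while TMM scaling gave −0.09 ± 0.39.

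The sensors together took 0.103%, 0.107%, 0.0853% and 0.0846% of reads in Het and 0.128%, 0.101%, 0.0697% and 0.0900% in KO, so the groups overlapped. With TMM scaling and only KO 1 and KO 2 set against Het, Atf6 and Ern1 were called higher, with log2 fold changes of 0.52 (adjusted p = 0.0114) and 0.55 (adjusted p = 0.00858), and Xbp1 was at 0.33 and was not called. With only KO 3 and KO 4 the values were −0.64 for Atf6 (adjusted p = 0.185), −0.74 for Ern1 (adjusted p = 0.127) and −0.45 for Xbp1 (adjusted p = 0.383). These subsets of libraries were split by their overall level and not by a label, and with KO 1 and KO 2 limma called 18.2% of all genes higher and 26.9% lower.

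Chaperones and their cofactors had a negative log2 fold change in 11 of 11 under both scalings, and limma called 0 of them under either. With DESeq2, 6 of the 11 were negative, with a median of −0.003. These are differences of mean logs: the arithmetic mean of the deposited values was higher in KO for 5 of the 11 (Hsp90b1, Dnajb9, Dnajb11, Manf and Canx), and for 0 with TMM scaling. Their median was −0.30 under the deposited scaling and −0.52 with TMM scaling. Per length, these genes hold the highest levels of the set. Hspa5, which encodes BiP, the main ER Hsp70 chaperone, was the highest of the 34 at 874 ± 134 RPKM (reads per exonic kilobase, scaled to library size) in Het and 638 ± 185 in KO (SD, n = 4 each). Hsp90b1, the ER Hsp90, was next at 632 ± 71.8 in Het, and Calr, the lectin chaperone calreticulin, followed at 517 ± 121. Hsp90b1 and Calr differed by less than the SD of Calr, and Hspa5 lay above both by more than its own SD. Lowest in Het were Derl2 at 7.67 ± 0.429, Derl3 at 11.3 ± 3.58 and Pdia5 at 11.6 ± 1.94, with Derl3 and Pdia5 within their spread.

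Hspa5 (chr2:34771970-34777547, plus strand) was at 32916, 30364, 43473 and 19967 normalized counts in Het and at 39020, 63051, 13958 and 10423 in KO. KO 2 was above the Het range, KO 3 and KO 4 were below it and KO 1 was inside it. In the fit, the log2 fold change of Hspa5 was −0.32 ± 0.74 (limma, adjusted p = 0.972), while TMM scaling gave −0.54 ± 0.45. Sdf2l1 (chr16:17130138-17132383, minus strand), a cofactor that keeps BiP and its J-domain partners working, was at 867, 870, 1216 and 520 in Het and at 652, 1265, 467 and 175 in KO. KO 2 was the highest of the 8 libraries and KO 3 and KO 4 the lowest. For Sdf2l1 the log2 fold change was −0.70 ± 0.54 (limma, adjusted p = 0.909), while TMM scaling gave −0.92 ± 0.34 (adjusted p = 0.406).

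Calr with TMM scaling was at 17426, 14142, 16423 and 9286 in Het and at 8473, 14663, 3998 and 3846 in KO, so that 3 of the 4 KO libraries were below every Het library. Calr had a log2 fold change of −1.07 ± 0.45 (limma, adjusted p = 0.502). Hyou1, a large Hsp70-like chaperone and exchange factor of BiP, was at 11429, 11544, 14865 and 9745 with that scaling in Het and at 8417, 12202, 3504 and 4041 in KO. KO 2 was again inside the Het range and the other 3 were below it. The fit gave Hyou1 a log2 fold change of −0.93 ± 0.42 (limma, adjusted p = 0.560). Creld2, a secreted and ER-resident protein induced by ER stress, was at 1656, 1248, 2005 and 959 in Het and at 848, 1400, 717 and 373 in KO, with KO 2 the 1 KO library inside the Het range. In the fit, the log2 fold change of Creld2 was −0.91 ± 0.36 (limma, adjusted p = 0.458). Under the deposited scaling the log2 fold changes of Calr, Hyou1 and Creld2 were −0.85 ± 0.69, −0.71 ± 0.68 and −0.69 ± 0.56 (limma, lowest adjusted p = 0.913). The other members of this role ranged from −0.25 for Dnajb9, a J-domain cofactor of BiP, to −0.52 for Hsp90b1 with TMM scaling. Between them were the membrane lectin chaperone Canx at −0.27, the J-domain proteins Dnajb11 and Dnajc3 at −0.38 and −0.50, and Manf, an ER protein that is secreted under stress, at −0.43.

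**Figure D3:**
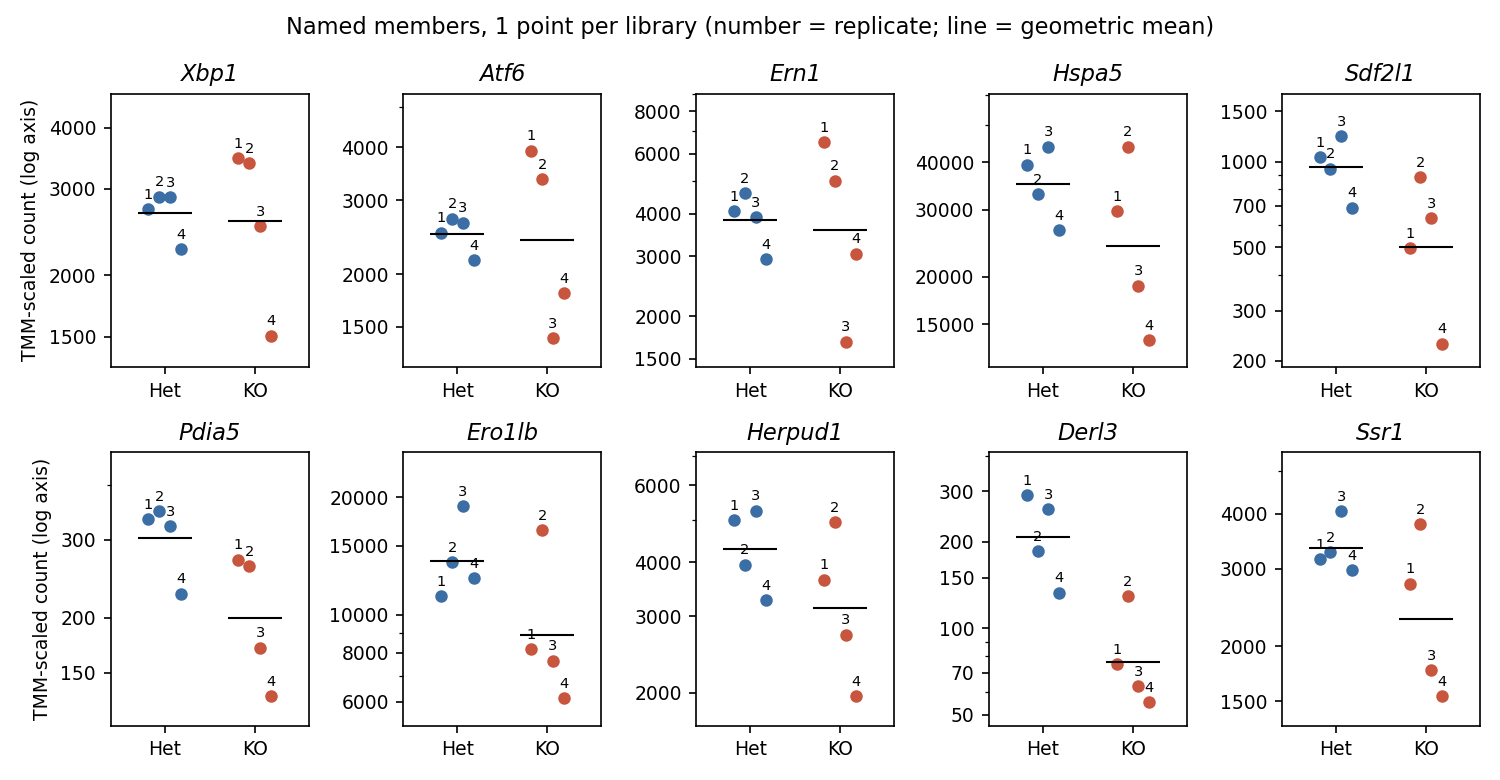
The 10 members named by rule, 1 point per library numbered by replicate, as TMM-scaled counts on a log axis, with a line at the geometric mean of each group. Derl3 is the 1 panel in which all KO points are below all Het points.

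The disulfide enzymes, which form and rearrange disulfide bonds in proteins such as proinsulin, had negative log2 fold changes in 6 of 6 under both scalings, and limma called 0. Their median was −0.39 under the deposited scaling and −0.61 with TMM scaling, the most negative of the 5 roles. Together they took 0.448%, 0.448%, 0.4998% and 0.436% of reads in Het and 0.293%, 0.425%, 0.306% and 0.251% in KO, with exact 95% binomial intervals of at most 0.00538 percentage points to either side. Every KO library was below every Het library on this share, by a small margin in KO 2. With TMM scaling, 0 of the 6 genes had every KO value below every Het value. How often the shares of other sets of genes separate in this way was not computed. The means were 0.458% ± 0.028 and 0.319% ± 0.075 (SD, n = 4 each).

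Ero1lb (also Ero1b, chr13:12565874-12611396, plus strand), the oxidase that keeps the isomerases oxidized and is abundant in beta cells, had the most counts of this role. It was at 9346, 12593, 18779 and 9353 normalized counts in Het and at 10727, 23674, 5623 and 4683 in KO. KO 2 was above the Het range, KO 1 inside it and the other 2 below it. For Ero1lb the log2 fold change was −0.41 ± 0.69 (limma, adjusted p = 0.962), while TMM scaling gave −0.63 ± 0.40. Pdia5 (chr16:35397312-35490873, minus strand), a disulfide isomerase of low level, was at 279, 321, 320 and 171 in Het and at 355, 375, 126 and 101 in KO. KO 1 and KO 2 were above all Het libraries and KO 3 and KO 4 below them. Pdia5 had a log2 fold change of −0.38 ± 0.47 (limma, adjusted p = 0.952), while TMM scaling gave −0.60 ± 0.25 (adjusted p = 0.503).

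P4hb, the classical protein disulfide isomerase, was at 9985, 9472, 12124 and 8431 with TMM scaling in Het and at 7465, 9932, 4731 and 3750 in KO. KO 2 was the 1 KO library inside the Het range. The fit gave P4hb a log2 fold change of −0.72 ± 0.38 (limma, adjusted p = 0.635). As deposited it was −0.50 ± 0.68. Pdia3, which works with calnexin and calreticulin, was at −0.49 with TMM scaling and −0.27 as deposited. The isomerases Pdia4 and Pdia6 were at −0.62 and −0.55 with TMM scaling, and at −0.40 and −0.33 as deposited.

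The 10 degradation genes did not move as a block, and the 3 derlins, channel-like proteins through which misfolded proteins leave the ER, stood at the extremes of all 34 members. Derl1 and Derl2 had the 2 highest log2 fold changes and Derl3 the lowest, under both scalings. The median of the role was −0.25 under the deposited scaling (6 of 10 negative) and −0.47 with TMM scaling (8 of 10 negative).

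Derl3 (ENSMUSG00000009092, chr10:75893413-75895941, plus strand, 1993 exonic bases) was at 243, 171, 258 and 100.5 normalized counts in Het and at 98.6, 186, 46.3 and 42.3 in KO, from 42 to 301 reads per library. With TMM scaling it was at 291, 186, 260 and 133 in Het and at 75.1, 130, 63.0 and 55.4 in KO. Under the first scaling KO 2 overlapped the Het range, and with TMM all 4 KO libraries were below all 4 Het libraries, KO 2 and Het 4 by a narrow margin. In the fit, the log2 fold change of Derl3 was −1.21 ± 0.43 under the deposited scaling (limma, adjusted p = 0.262). With TMM scaling Derl3 fell by 1.43 on the log2 scale (SE 0.29; limma, adjusted p = 0.0193), from 218 ± 71.6 to 80.8 ± 33.6 (SD, n = 4 each). On whole reads edgeR also called it (log2 fold change −1.44, adjusted p = 0.0277), the 1 member it called lower, with 0 higher, where it called 0.0343% and 0.673% of genes, and DESeq2 did not (adjusted p = 0.510). When a library was left out, the adjusted p of the TMM fit rose above the threshold for Het 1 (0.108), Het 2 (0.0528), Het 3 (0.0785), KO 1 (0.0821) and KO 4 (0.102), and the call was kept without Het 4, KO 2 or KO 3. In each of these fits the log2 fold change was between −1.69 and −1.28. Acinar cells, which secrete digestive enzymes and have an extensive ER, are a different cell type that islet preparations can hold. The 20 acinar markers summed to 852 to 1071 in Het and 479 to 774 in KO with TMM scaling, and to 645 to 1062 and 436 to 1112 under the deposited scaling, with 0 of the 20 at 0 in every library. Bhlha15, the highest, averaged 533 normalized counts and so weighs heavily in these sums. With TMM scaling the median of the 12 tested markers did not follow the sums. Relative to the Het mean it was at −1.28, −0.95, 0.81 and 0.46 in KO 1 to KO 4 and at −0.26 to 0.47 in Het. The 8 macrophage markers summed to 431 to 558 in Het and 156 to 301 in KO with TMM scaling, and to 357 to 476 and 187 to 383 as deposited, with 5 of the 5 tested negative, 0 at 0 in every library and C1qa the highest. Limma called C1qa lower under both scalings (log2 fold change −2.01 with TMM, adjusted p = 0.00340), without each library in turn with TMM, and as deposited not without Het 1 (adjusted p = 0.0665), Het 2 (0.0817) or KO 4 (0.0943). Of 6 duct markers, 4 were negative and 2 positive under both scalings, with Krt7 the highest. They summed to 2170 to 3075 in Het and 1883 to 3703 in KO with TMM scaling, and to 1636 to 3048 and 1438 to 4859 as deposited. The 1 that limma called, Krt19, was lower as deposited (log2 fold change −1.69, adjusted p = 0.00488, but not without Het 3, 0.565, or KO 1, 0.0711). With TMM scaling Krt19 was not called (adjusted p = 0.163). The part of these cell types in the value of Derl3 was not tested.

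Derl1 with TMM scaling was at 1220, 1268, 1577 and 1214 in Het and at 2372, 1861, 1192 and 1040 in KO. KO 1 and KO 2 were above all Het libraries and KO 3 and KO 4 below them, KO 3 narrowly. For Derl1 the log2 fold change was 0.22 ± 0.30 with TMM scaling (limma, adjusted p = 0.812) and 0.44 ± 0.58 under the deposited scaling. Derl2 was at 520, 612, 675 and 562 in Het and at 762, 833, 663 and 521 in KO, with the same 2 KO libraries above the Het range and the other 2 inside it. Derl2 had a log2 fold change of 0.21 ± 0.24 with TMM scaling (limma, adjusted p = 0.771) and 0.43 ± 0.54 under the deposited scaling.

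**Figure D4:**
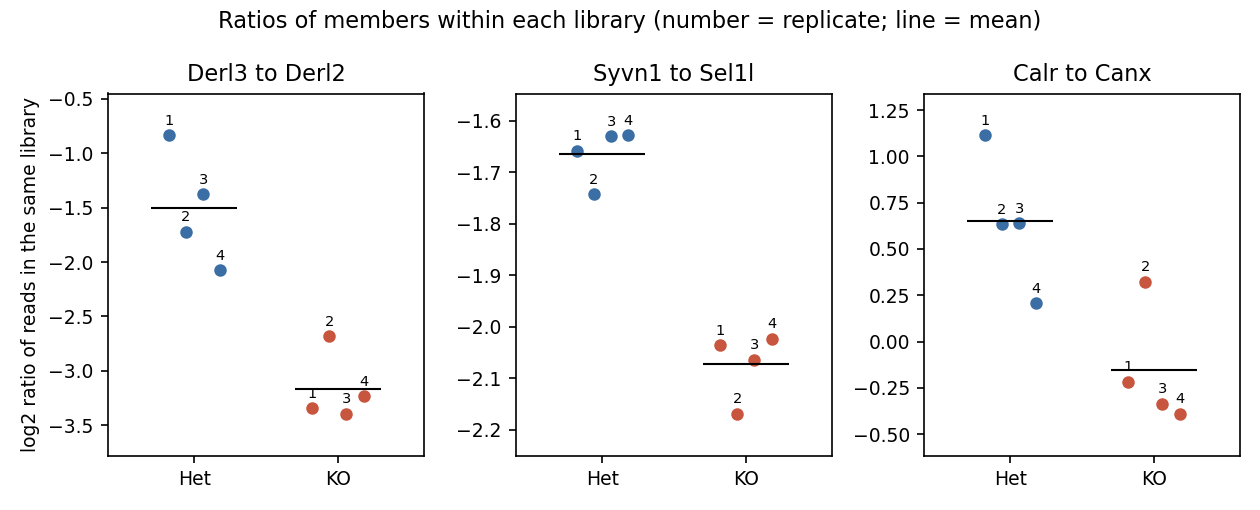
Log2 ratio of the reads of 2 members in the same library (vertical axis) for Derl3 to Derl2, Syvn1 to Sel1l and Calr to Canx, 1 point per library numbered by replicate, with a line at the mean of each group. In the first 2 panels all KO points are below all Het points, and in the third KO 2 lies above Het 4.

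Ratios within a library set the derlins against each other without any scaling. A ratio does not remove a relation of level to GC content or length within a library. Reads of Derl3 per read of Derl2 were 0.560, 0.303, 0.385 and 0.237 in Het and 0.0987, 0.156, 0.0950 and 0.106 in KO. Every KO library was below every Het library, KO 2 included, and the mean log2 ratio was −1.50 ± 0.53 in Het and −3.16 ± 0.33 in KO (SD, n = 4 each). Reads of Derl3 per read of Derl1 were 0.239, 0.146, 0.165 and 0.1098 in Het and 0.0317, 0.0697, 0.0528 and 0.0533 in KO, again with no overlap. These ratios were chosen after the values were seen, and they carry no test. Of the 561 pairs that 34 members form, 145 (25.8%) had ratios that did not overlap between the groups. Derl3 was lower in KO in its ratio to 27 of the other 33 members, Hyou1 in 19, and P4hb and Syvn1 in 15 each. Derl1 was higher in KO against 20 of 33, Derl2 against 18, and Xbp1 and Edem2 against 10 each. The ratios share libraries and genes and are not independent. No such share was computed for pairs of other genes, so these counts cannot be called a trait of the members.

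Of the ligase complex that sends misfolded proteins to the proteasome, Syvn1 and Sel1l had unequal estimates, and neither was called under either scaling. Syvn1, the membrane ubiquitin ligase HRD1, was at 1458, 1308, 1536 and 981 with TMM scaling in Het and at 1019, 1129, 369 and 552 in KO, with KO 1 and KO 2 inside the Het range and the other 2 below it. The fit gave Syvn1 a log2 fold change of −0.90 ± 0.33 (limma, adjusted p = 0.405). Sel1l, the adaptor protein that holds HRD1 in its complex, had −0.50 ± 0.38 (limma, adjusted p = 0.713). As deposited, Syvn1 was at −0.68 ± 0.56 and Sel1l at −0.28 ± 0.63. Reads of Syvn1 per read of Sel1l were 0.317, 0.299, 0.323 and 0.324 in Het and 0.244, 0.222, 0.239 and 0.246 in KO. The 4 KO libraries, whose levels of both genes differed widely, had a log2 ratio of −2.07 ± 0.066 and all lay below the Het libraries, at −1.66 ± 0.053 (SD, n = 4 each). By contrast Calr per Canx, 2 lectin chaperones, was 2.16, 1.55, 1.56 and 1.15 in Het and 0.860, 1.25, 0.792 and 0.763 in KO, with KO 2 above Het 4. These ratios too were chosen after the values were seen and carry no test. That of Syvn1 to Sel1l is among the 145 of 561 pairs without overlap.

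Herpud1 (chr8:94386438-94395377, plus strand), a scaffold of the HRD1 complex that stress induces, had the most counts of the degradation genes. It was at 4171, 3642, 5198 and 2463 normalized counts in Het and at 4778, 7085, 2001 and 1499 in KO. KO 2 was above the Het range, KO 1 inside it and KO 3 and KO 4 below it. In the fit, the log2 fold change of Herpud1 was −0.23 ± 0.64 (limma, adjusted p = 0.978), while TMM scaling gave −0.45 ± 0.35. The mannosidase-like proteins Edem1, Edem2 and Edem3, which mark glycoproteins for degradation, had −0.05, −0.20 and −0.48 with TMM scaling, and the lectin Os9 −0.51. As deposited these 4 were at 0.17, 0.02, −0.26 and −0.29.

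The 4 translocation genes had median log2 fold changes of 0.01 as deposited and −0.21 with TMM scaling, and limma called 0 of 4 under either. Ssr1 (chr13:37966605-37994217, minus strand), the alpha subunit of the translocon-associated protein complex, was at 2634, 3017, 4017 and 2247 normalized counts in Het and at 3640, 5435, 1298 and 1174 in KO. KO 1 was inside the Het range, KO 2 above it and the other 2 below it. For Ssr1 the log2 fold change was −0.31 ± 0.62 (limma, adjusted p = 0.967), while TMM scaling gave −0.53 ± 0.33. Sec61a1, the pore of the translocon, had −0.30, Ssr3, the gamma subunit, −0.13, and Sec61b, a small translocon subunit, −0.02 with TMM scaling. As deposited these 3 were at −0.08, 0.09 and 0.20. Sec61b was the 1 member above the Het range in KO 3, at 910 against 418 to 678 in Het. It has 1271 exonic bases, and Sdf2l1 is the 1 member shorter than it; across genes of high level KO 3 had lower values the longer the gene (Spearman's rho −0.48 over 6651 genes, a description across genes of 1 library). The part of length in the value of Sec61b was not tested.

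**Figure D5:**
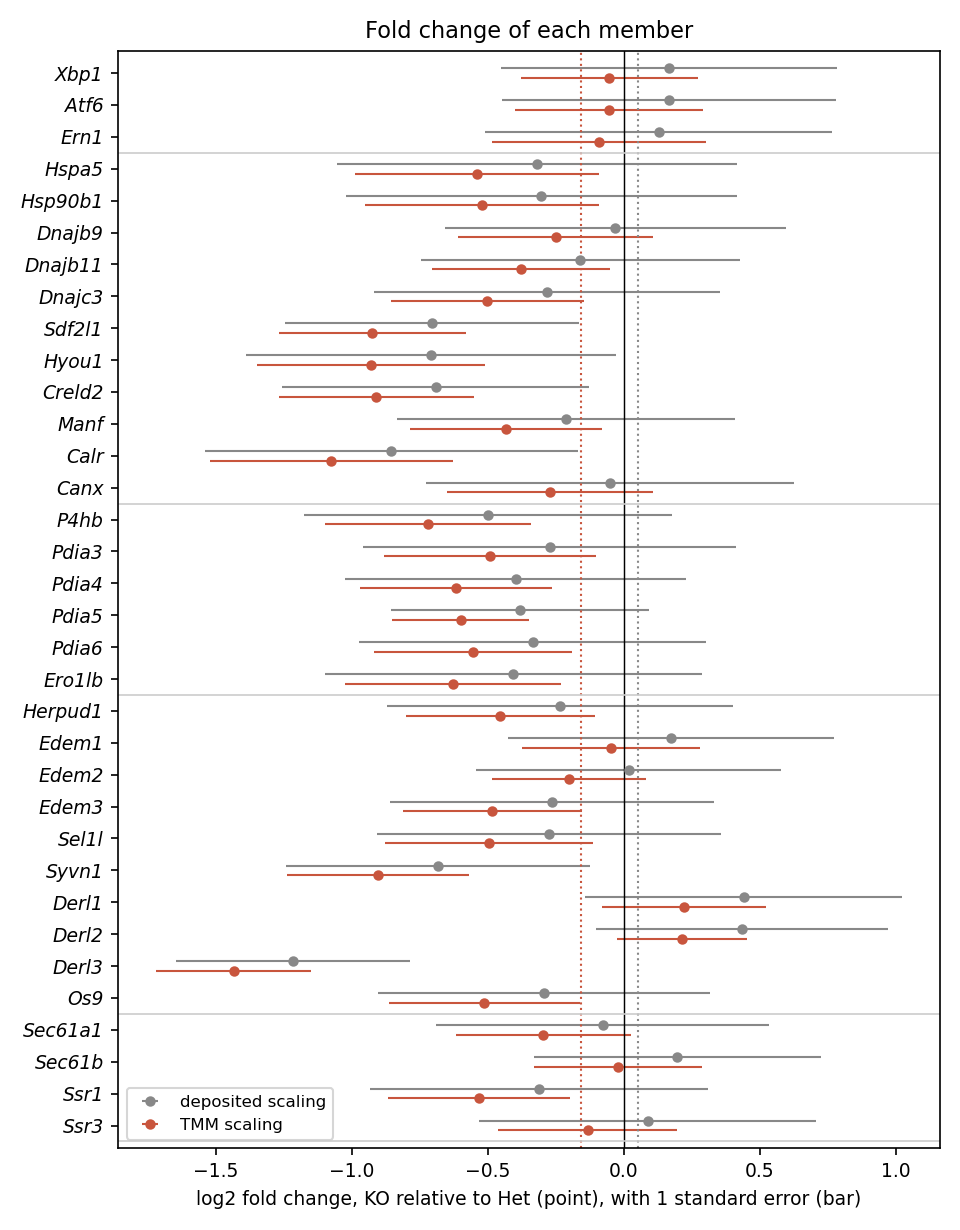
Log2 fold change of each member, KO relative to Het, as a point with a bar of 1 standard error, under the deposited scaling (grey) and with TMM scaling (red); dotted lines mark the median of all tested genes. Derl1 and Derl2 are the highest points and Derl3 the lowest, and the bars of most members cross 0 under the deposited scaling.

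More members were called in a fit that changed both the filter and the scaling factors. When it was limited to genes averaging 200 or more, with TMM factors taken from these genes, limma called 5 of 33 members lower and 0 higher, where it called 4.24% and 6.03% of genes, and the members' median was −0.52, against −0.49 with TMM scaling of all tested genes. The 5 were Calr, which fell by 1.10 (adjusted p = 0.0387), Hyou1, which fell by 0.95 (0.0313), Syvn1, which fell by 0.93 (0.0146), P4hb, which fell by 0.74 (0.0387), and Pdia5, which fell by 0.62 on the log2 scale (0.0333). Derl3 has a mean below 200 and was not in that fit. The call of Syvn1 was lost without Het 1 (adjusted p = 0.0563) and kept without each of the other 7 libraries. That of Pdia5 was kept without Het 4, KO 2 or KO 3, those of Hyou1 and P4hb without KO 2 or KO 3, and that of Calr without KO 2. The 5 log2 fold changes were negative in all 8 of these fits. The number of members called was 15 without KO 2, 8 without KO 3, 2 without Het 4, 1 without Het 2, Het 3, KO 1 or KO 4, and 0 without Het 1. Of all genes 8.74% were called lower without KO 2 and 7.35% without KO 3, against 0.371% to 2.60% in the other 6 fits, so the background moved with the count.

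The members differ in GC content, from 40.6% in Dnajb9 to 57.3% in Derl3, and in exonic length, from 1108 bases in Sdf2l1 to 10431 in Ssr1, and both properties were related to the level of genes in single libraries. Over 6651 genes of high level, Spearman's rho of the deviation with GC content was 0.43, 0.24, −0.21 and −0.45 in Het 1 to Het 4. In KO 1 to KO 4 it was −0.20, −0.35, −0.24 and −0.24. The part of GC content in the ratios of members was not tested. Splines of GC content and length had an R2 of 0.439 for the deviations in KO 3 and of 0.0230 to 0.194 in the other libraries. After they were removed from the TMM values, an alternative added after the data were seen, limma called 8 members lower and 0 higher, where it called 0.697% and 0.939% of genes. The 8 were Sdf2l1, Creld2, P4hb, Pdia4, Pdia5, Edem3, Syvn1 and Derl3, with log2 fold changes from −1.51 for Derl3 to −0.63 for Edem3. The median of the members was −0.61, 31 of 34 negative.

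When KO 1 and KO 2 alone were set against Het with TMM scaling, limma called 5 members higher (Atf6, Ern1, Edem1, Derl1 and Derl2) and 2 lower (Sdf2l1 and Derl3). Of all genes it called 18.2% higher and 26.9% lower in that comparison, so the members' shares lie near or below the background. The members' median there was 0.02, with 16 of 34 negative. Against KO 3 and KO 4 only, it called 16 lower and 0 higher, where 4.96% and 2.37% of genes were called, and the members' median was −0.99. Derl3 was called lower in both, by 1.09 (adjusted p = 0.00102) and 1.79 on the log2 scale (adjusted p = 7.95e-10). Sdf2l1 was too, with −0.55 (adjusted p = 0.0243) and −1.31 (adjusted p = 9.46e-05). Both comparisons use the same Het libraries, and the KO pairs were split by their overall level, seen in these same data. Such a split narrows the spread within a pair. The adjusted p-values of these 2 comparisons therefore do not count as separate support. KO 3 and KO 4 also differ from KO 1 and KO 2 in the overall level of genes and in Ddx3y, as given above. Their part in the difference was not tested.

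The members with an ERSE or ERSE-II match had a median TMM log2 fold change of −0.55, 12 of 12 negative and the highest at −0.27 (Canx). The 17 with a promoter but no match had a median of −0.48, 16 of 17 negative and the highest at 0.21 (Derl2). The 2 groups overlapped widely, and Sdf2l1 at −0.92 is among those without a match. Their median GC contents were 49.5% and 47.7%.

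Other genes of the pathways were read from 5 wider lists. Of 11 other sensors and processing genes, 8 had negative log2 fold changes with TMM scaling (median −0.26), and of 33 other folding and glycan quality control genes 24 (median −0.21). Limma called 0 genes in either list under either scaling. At an unadjusted p under 0.05 with TMM scaling, 3 of the first list were lower (Creb3l1, Eif2ak3, which encodes PERK, and Creb3l2, named after their values were seen, at −0.77 ± 0.30, −0.82 ± 0.37 and −0.78 ± 0.36) and 1 of the second, Tmx2, was higher. Of all 21498 genes, 667 were lower and 1148 higher at that threshold. The 2 with the smallest p under the deposited scaling, the rule for naming genes of each list, were in the first list Mbtps2, a protease that cuts ATF6, at 0.28 ± 0.23 with TMM scaling, and Creb3l3, a liver-enriched relative of ATF6, at −0.66 ± 0.51. Those of the second were Fkbp7, an ER prolyl isomerase, at 0.71 ± 0.45 and Tmx2, a thioredoxin-like membrane protein, at 0.48 ± 0.22.

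The 31 other degradation genes were on the positive side, 29 of 31 positive under the deposited scaling (median 0.39) and 20 of 31 with TMM scaling (median 0.17), with 0 called and 0 at an unadjusted p under 0.05. Of the 6697 genes averaging 200 or more, 5104 were positive as deposited (median 0.24) and 3492 with TMM scaling (median 0.02). Erlin1, which targets ER membrane proteins for degradation, was at 0.57 ± 0.28 with TMM scaling and Trim13, an ER-anchored ubiquitin ligase, at 0.37 ± 0.28. The 31 other genes of translocation, signal peptide removal and glycan transfer had a median of −0.25 with TMM scaling, 24 of 31 negative, 0 called and 0 at an unadjusted p under 0.05. Srp19, of the signal recognition particle, was at 0.38 ± 0.24 and Krtcap2, a subunit of oligosaccharyltransferase, at 0.35 ± 0.27.

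The PERK and ATF4 branch had values opposite in sign to those of the chaperones, 20 of 20 positive under the deposited scaling (median 0.87) and 19 of 20 with TMM scaling (median 0.65). Most genes averaging 200 or more were positive as deposited too, 5104 of 6697 (median 0.24), against 3492 with TMM scaling (median 0.02). Limma called 2 of 20 higher under both scalings, Atf3 and Trib3, and 0 lower. Atf3, a stress-induced transcription factor, was at 494, 341, 590 and 491 with TMM scaling in Het and at 3276, 2032, 1966 and 2464 in KO. Trib3, a pseudokinase induced by ATF4, was at 451, 343, 559 and 372 in Het and at 2753, 1356, 1056 and 1231 in KO. For both genes every KO library was above every Het library. With TMM scaling Atf3 rose by 2.34 ± 0.28 on the log2 scale (limma, adjusted p = 0.000202) and Trib3 by 1.81 ± 0.30 (adjusted p = 0.00477), and both calls were kept without each library in turn. Under the deposited scaling that of Atf3 was lost without Het 2 (adjusted p = 0.0575) and that of Trib3 without Het 1 (adjusted p = 0.225), Het 2 (0.304), Het 3 (0.0592), Het 4 (0.310) or KO 1 (0.419). A list of 18 immediate early and chaperone genes that respond to tissue dissociation, Atf3 among them, had a median of 0.43 with TMM scaling, 12 positive. Their part in the value of Atf3 was not tested.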

How the data were processed

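RNA was sequenced from 8 libraries, 4 Het and 4 KO, grouped by their titles, with a stranded pico-input kit for total RNA per the labels' protocols. Per the submitters' processing notes, STAR 2.7.3a and build mm10 were used, with HTSeq, UMI-tools, DESeq2 1.28.1 and FastQC 0.11.8, and what each step did is not given in the sources used here. The deposited table holds a signal per gene and library, each library having been divided by its own size factor. In each library 100% of values were whole multiples of 1 step within 0.001, which gave back whole reads.

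Fold changes and p-values come from limma 3.58.1 (R 4.3.3) on log2(value + 1), genotype as the only term, eBayes with trend and robust settings, two-sided, for genes with an average of 10 or more. Fold changes on that scale understate those of low genes. Limma draws each gene's variance toward a trend over all genes. The median degrees of freedom were 128988 under the deposited scaling. There the standard error of most genes is therefore that of the trend, not of the gene's own spread. The median was 17.3 with TMM scaling. It was 64494 with the replicate block and 90296 with KO 3 and KO 4 only, both under either scaling. edgeR 4.0.16 and DESeq2 1.42.0 were run on the recovered reads, and the scripts were tested on simulated data. No 2 libraries of a group agreed within sampling noise (chi-square per degree of freedom at least 3.61 in Het and 32.2 in KO).

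The members, lists and tests were chosen with earlier results of these data known. Values in every library are given for the sensors, for the member of smallest p and that of highest mean in each role, and for members called under either scaling; Calr, Hyou1, Creld2, P4hb, Syvn1, Derl1 and Derl2 were added after their values were seen. Gene positions and lengths are from GENCODE M21 (mm10).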

Additional observations from a re-analysis of the deposited data

How the results depend on the processing

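The number of members called higher was 0 under the deposited scaling and became 16 of 34 with KO 1 and KO 2 only (47.4% of all genes were called higher), 10 without Het 1, KO 3 and KO 4 (42.3% of genes), and 5 with TMM scaling and KO 1 and KO 2 only (18.2% of genes). The number called lower was 0, with the share of all genes called lower given in brackets below. It became 1 with TMM scaling (0.0372%), TMM scaling with the replicate block (0.447%), array weights (0.0837%) or edgeR (0.0343%). It became 3 with quantile scaling (0.642%), 5 among genes averaging 200 or more (4.24%) and 8 with the GC and length correction (0.697%). It became 21 with KO 3 and KO 4 only (7.03%). With TMM scaling it became 2 with KO 1 and KO 2 only (26.9%) and 16 with KO 3 and KO 4 only (4.96%). Leaving out 1 library under the 3 scalings gave 0 to 15 lower, where 0.00472% to 8.74% of genes were called lower. The members' median of −0.27 became 0.02 with DESeq2 and 0.02 with TMM scaling and KO 1 and KO 2 only. It became 0.70 with KO 1 and KO 2 only and 0.70 without Het 1, KO 3 and KO 4. It became −1.22 with KO 3 and KO 4 only and −0.99 with TMM scaling and these 2. Leaving out 1 library gave −0.74 to 0.10, where the highest was without KO 4 under the deposited scaling. With KO 1 and KO 2 only under that scaling, members with a negative log2 fold change were called higher: Canx (0.93), Dnajb9 (0.84), Sec61a1 (0.83), Sel1l (0.81), Dnajb11 (0.78), Os9 (0.75) and Edem3 (0.73). Without Het 1, KO 3 and KO 4 so was Dnajb11 (0.81). The cause was not tested.

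Genes called higher (198) became 320 with quantile scaling, 404 with genes averaging 200 or more, 127 without trend and robust settings, 307 with TMM scaling and the replicate block, 9809 with KO 1 and KO 2 only, 8538 without Het 1, KO 3 and KO 4, 3758 with TMM scaling and KO 1 and KO 2 only, 535 with TMM scaling and KO 3 and KO 4 only, and 94 to 621 on leaving out 1 library. Genes called lower (5) became 2 with genes averaging 50 or more, 8 with TMM scaling or edgeR, 138 with quantile scaling, 284 with genes averaging 200 or more, 1 without trend and robust settings, 18 with array weights, 96 with TMM scaling and the replicate block, 3 with DESeq2, 147 with the GC and length correction, 3182 with KO 1 and KO 2 only, 1587 with KO 3 and KO 4 only, 2049 without Het 1, KO 3 and KO 4, 5573 and 1119 with TMM scaling and each pair of KO libraries, and 1 to 557 on leaving out 1 library.

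The replicate numbers are not known to pair the libraries. The correlation of deviations of same-numbered libraries was 0.22, −0.05, 0.13 and 0.28, and only Het 1 and Het 4 correlated best with the KO library of their own number. With the replicate block limma called 182 genes higher and 5 lower and 0 members, and with TMM scaling 307 and 96 and 1 member, Derl3 (adjusted p = 7.42e-07). The alternatives with TMM scaling and 2 KO libraries, the GC and length correction and leaving out 1 library with genes averaging 200 or more were chosen after seeing the data. Pseudocounts of 0.5 and 8 and no filter moved the members' median by less than the spread between the Het libraries.

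Standard errors of the members were 0.43 to 0.74 under the deposited scaling, and Derl3 rested on 42 to 301 reads per library.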
